A study of Danio rerio with 8 samples.

Results

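The genes described here code for the constitutive proteasome, measured by RNA sequencing in the adult zebrafish ventricle. They were taken as every row of the counts table whose symbol begins with psm, a letter from a to g and a digit, without the psmb8 to psmb13 genes of the immunoproteasome. Of 32520 rows, 59 carried such a symbol, and 52 were kept after the 7 immunoproteasome rows were left out. Of the 52, PSMC3IP and PSME3IP1 match by name only, since they code for partners that bind a subunit and not for parts of the proteasome. The other 50 rows are 10 genes of the core alpha rings, 7 of the core beta rings, 7 ATPases of the cap, 14 further cap subunits, 6 assembly factors, and 6 activators or inhibitors.

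The proteasome is the main protease of the cytoplasm and nucleus and degrades proteins that carry ubiquitin chains. Its barrel-shaped core has outer rings of alpha subunits, which form the gate, and inner rings of beta subunits, of which PSMB5, PSMB6 and PSMB7 cut the substrate. The cap sits on the core; its ring of ATPases unfolds substrates and opens the gate, while its other subunits bind ubiquitin and remove it. Most of these roles were worked out in yeast and mammals. Heart muscle depends on the proteasome to replace damaged contractile and other proteins, and interferon makes many cells exchange the cutting subunits for the immunoproteasome forms PSMB8, PSMB9 and PSMB10.

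The ventricles came from adult F1 fish whose mothers were uninjured and whose fathers were either uninjured (Pu-Fu) or cryoinjured, that is, wounded by freezing part of the heart, and crossed 7 days later (Pi-Fu). The offspring themselves were not injured, and the labels name no transgene or mutation. Each library was made from a pool of 4 sibling fish. There were 4 libraries with uninjured fathers, numbered 1, 3, 4 and 5, and 4 with injured fathers, numbered 1, 2, 4 and 7. Nothing in the labels tells whether pools within a group share a father; the p-values therefore reflect only the spread among these pools, which may be partly technical. Libraries held 8441014 to 16290169 counts. Heart muscle markers, which are contractile genes and nppa, a natriuretic peptide gene, summed to 59361 to 73918 counts per 1000000 (CPM) in the 8 libraries over the 9 matched rows. That list does not tell ventricle from atrium. Rows matched by symbol to markers of the atrium and bulbus, which were removed by hand, summed to 774 to 1287 CPM. Of these, MYH6 on chromosome 2 (ENSDARG00000079564) was at 425 to 1051 CPM and myh6 on chromosome 20 at 48.3 to 270 CPM. Whether the first of these rows marks the atrium was not tested, so the sum is not a measure of atrium left in the samples.

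Per kilobase of gene length, 49 of the 50 lay above the median of all 13604 tested genes, which was 2.91 CPM per kb, and their own median was 18.2 CPM per kb. The levels differed by part. The median was 50.2 CPM per kb in the core beta genes, 23.6 in the core alpha genes, 20.8 in the cap ATPases, 14.9 in the other cap subunits, 11.1 in the assembly factors and 16.4 in the activators and inhibitor. Values per kb assume even coverage along each gene, which was not tested. The core beta genes were 903 to 1643 bases long and the assembly factors 815 to 2112 bases. The part of gene length in these levels was not tested. In the particle the core positions are filled in equal number, while RNA levels per kb ranged widely over the core genes.

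In the core, the highest gene per kb was PSMB4, a beta subunit without cutting activity, at 87.5 CPM per kb, and the lowest beta gene was PSMB5, the subunit with chymotrypsin-like activity, at 12.8 CPM per kb. Among the cutting subunits, PSMB7 stood at 50.9 and PSMB6 at 27.98 CPM per kb. In the alpha rings the order ran from PSMA8, for which RefSeq lists psma7 as a synonym, at 63.5 CPM per kb, and PSMA3 at 57.7, down to psma6l at 5.08. The levels of PSMA8 and PSMA3 differed by less than their spread, at 60.9 ± 11.5 and 55.0 ± 10.0 CPM per kb with uninjured fathers (SD, n = 4). In the cap, the ATPase gene PSMC5 (68.8 CPM per kb) and PSMD6, a subunit of the lid (47.4), were highest in their parts, and PSMC1 (10.7) and PSMD11 on chromosome 3 (4.56) were lowest. The length is that of all annotated exons of a gene. A gene whose transcripts hold only part of this length has a lower value per kb than its transcripts would have. PSMA2 was long, at 4890 bases, and how much of this length its transcripts hold was not tested.

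**Figure D1:**
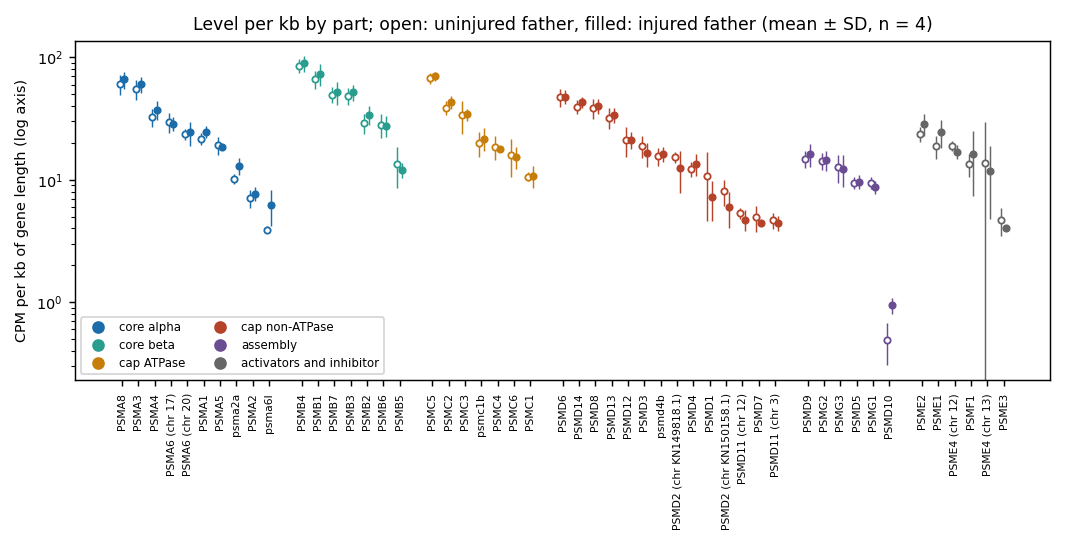
Level of each proteasome gene in CPM per kb of gene length on a log axis, by part; open points are uninjured fathers and filled points injured fathers (mean ± SD, n = 4 each). PSMB4 was highest at 87.5 CPM per kb over all libraries and PSMD10 lowest at 0.716; the bar of PSME4 on chromosome 13 reaches to the lower edge because its SD exceeded its mean.

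The comparison addresses how cryoinjury of fathers before mating bears on ventricle transcripts of their uninjured progeny. No proteasome gene was called different between the groups by the edgeR quasi-likelihood test after Benjamini-Hochberg adjustment over all genes. All 50 passed the filter on low counts and 0 were called, beside 0% of the 13604 genes tested. At an unadjusted p under 0.05 there were 2 proteasome genes, psma6l and PSMD10, both higher with injured fathers, where 7.14% of all tested genes reached it (3.67% higher and 3.47% lower). The smallest adjusted p among the 50 was 0.63. The count at an unadjusted edgeR p under 0.05 depended on single libraries. It was 0 without the uninjured-father library 1, beside 897 of 13876 genes tested. Without the injured-father library 7 it was also 0, beside 1328 of 13798. Without the uninjured-father library 5 it was 4, beside 1268 of 13869. DESeq2 called 0 of the 50, beside 0.473% of all genes, with a smallest adjusted p of 0.44, and limma voom called 0.

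The differences were small as well as not called. The median log2 fold, injured over uninjured, was 0.06, beside -0.01 over all tested genes, and the middle of the 50 values ran from -0.05 to 0.13 (quartiles). The 95% interval of the fold lay wholly inside a change of 1.5-fold in either direction for 32 of the 50 genes, and inside 2-fold for 45. The 5 genes with wider intervals were psma6l, PSMD1, PSMD10, PSMF1 and PSME4 on chromosome 13. A positive log2 fold was found in 32 genes, or 64.0%, beside 48.6% of all tested genes. That count rested on single libraries: without the injured-father library 4 it was 15, with a median log2 fold of -0.05, and without the uninjured-father library 5 it was 40, with a median of 0.17. The groups did not overlap in 3 genes, beside 4.18% of all tested genes. In all 3 the injured-father libraries were the higher ones, beside 2.6%, and in 0 genes the lower ones, beside 1.58%.

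**Figure D2:**
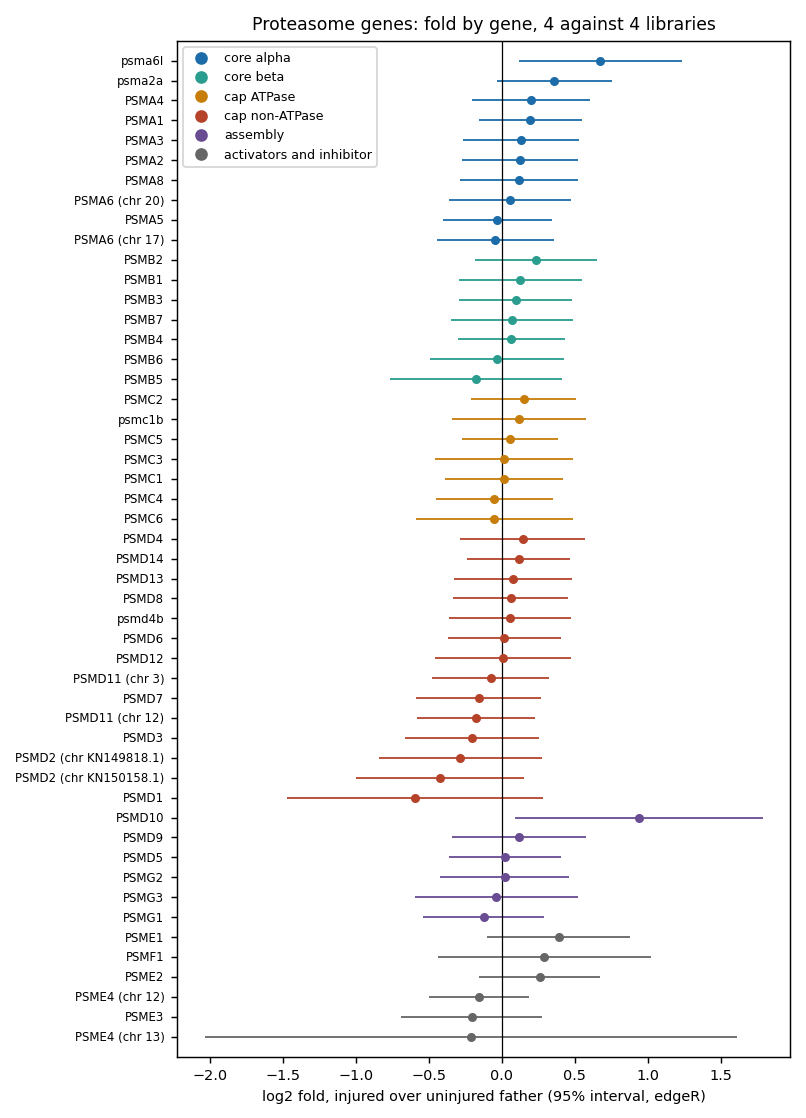
Log2 fold of each proteasome gene, injured over uninjured father, with its 95% interval from the edgeR fit (4 against 4 libraries); colours mark the parts. The intervals of psma6l and PSMD10 lie above 0 before adjustment, the widest interval is that of PSME4 on chromosome 13, from -2.03 to 1.61, and no gene was called after adjustment.

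The proteasome genes together took 0.198%, 0.192%, 0.191% and 0.208% of the counts in the libraries 1, 3, 4 and 5 of uninjured fathers. They took 0.214%, 0.210%, 0.210% and 0.212% in the libraries 1, 2, 4 and 7 of injured fathers. The injured-father shares lay just above the highest uninjured-father share on this scale. Over TMM-scaled totals the ranges overlapped, at 0.191% to 0.224% with uninjured fathers and 0.195% to 0.230% with injured fathers. Over unscaled counts the ranges of the groups overlapped in each part taken alone. The sum also holds the variable gene PSME4 on chromosome 13. It was at 268 and 16.2 CPM in the uninjured-father libraries 4 and 5 and at 155 CPM in the injured-father library 1. Whether the groups overlapped depended on the choice of scaling and on the genes summed. The sum without PSME4 on chromosome 13 was not tested. In these bulk libraries, fewer cells of a type and less RNA per cell cannot be told apart.

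The core alpha genes had a median log2 fold of 0.13, with 8 of 10 positive. The gene with the smallest p was psma6l (ENSDARG00000043899, GRCz11 chromosome 15, 47920629 to 47929455), a relative of the alpha ring subunit gene PSMA6. It was at 5.33, 6.16, 5.70 and 5.31 CPM in the libraries 1, 3, 4 and 5 of uninjured fathers and at 10.7, 6.26, 6.68 and 12.2 CPM in the libraries 1, 2, 4 and 7 of injured fathers. The groups did not overlap, though the injured-father library 2 was close to the uninjured-father library 3. The log2 fold was 0.68 (SE 0.26); the edgeR p was 0.022 before and 0.63 after adjustment over all genes. Without the injured-father library 7 it was 0.48.

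The alpha gene psma2a (ENSDARG00000040121, chromosome 16, 43335696 to 43344859) was at 18.7, 18.8, 15.4 and 18.4 CPM with uninjured fathers and at 22.1, 20.5, 28.3 and 20.6 CPM with injured fathers. Again every injured-father library was higher, with a log2 fold of 0.36 (SE 0.18) and an adjusted edgeR p of 0.71. Its span overlaps that of MRPL32, on the other strand, by 385 bases and that of ATAD2, on the same strand, by 219 bases, so its level is uncertain there. PSMA8, the highest alpha gene per kb, was at 76.2, 81.0, 67.1 and 103 against 76.9, 78.4, 107 and 93.6 CPM, a log2 fold of 0.12 (SE 0.18). The other 8 alpha genes, PSMA8 among them, overlapped between groups, with log2 folds from -0.05 (PSMA6 on chromosome 17) to 0.20 (PSMA4).

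The core beta genes had a median log2 fold of 0.07, with 5 of 7 positive and overlapping groups in all 7. The smallest p belonged to PSMB2, a beta subunit without cutting activity, at 46.1, 44.1, 39.8 and 60.3 CPM with uninjured fathers and at 44.1, 54.6, 68.4 and 56.5 CPM with injured fathers. Its log2 fold was 0.23 (SE 0.19, edgeR adjusted p = 0.80). PSMB1, likewise without cutting activity, was at 57.2, 63.9, 53.3 and 77.1 against 54.6, 60.6, 86.3 and 73.3 CPM, a log2 fold of 0.13 (SE 0.19). Its span shares 8687 bases with another row on the same strand, so its level is uncertain. PSMB4 was at 77.7, 83.9, 72.3 and 96.8 against 82.4, 79.5, 105 and 79.1 CPM, a log2 fold of 0.07 (SE 0.17). In all 3 the injured-father library 4 was highest and the uninjured-father library 4 lowest of the 8.

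The 3 cutting subunits gave small and uneven values. PSMB5 was at 16.9, 20.01, 9.23 and 24.8 CPM with uninjured fathers and at 13.9, 16.9, 18.1 and 13.7 CPM with injured fathers, so that the extremes of all 8 libraries both lay in the uninjured group. PSMB6, the caspase-like subunit, was at 30.4, 38.1, 45.6 and 28.4 against 41.1, 34.9, 37.9 and 25.3 CPM. PSMB7, the trypsin-like subunit, was at 60.9, 54.0, 56.5 and 74.8 against 64.7, 60.8, 83.2 and 50.3 CPM. Their log2 folds were -0.18 (95% interval -0.77 to 0.41), -0.03 (-0.49 to 0.43) and 0.07 (-0.34 to 0.49), and none was called. In the library 4 of uninjured fathers PSMB5 was lowest while PSMB6 was highest of all 8 libraries.

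Of the 7 inducible or related rows that the rule leaves out, 5 were tested, and all 5 had higher means with injured fathers. Of these, 4 had an unadjusted edgeR p under 0.05, beside 7.14% of all tested genes (3.67% higher), and 0 were called. The 4 were PSMB8, PSMB9, psmb12 and psmb13a, which lie together on chromosome 19, from base 7105838 to 7144585. They are neighbours in a single locus, and the spans of PSMB8 and psmb13a overlap on the same strand. In all 4 the injured-father library 7 was highest, with PSMB8 at 35.4 CPM against 10.4 to 14.4 CPM in the other injured-father libraries. The other 2, PSMB11 and psmb11b, did not pass the filter: PSMB11 was at 0 in all libraries, and psmb11b had means of 0.040 CPM with uninjured and 0.022 CPM with injured fathers. Per kb, the ratio of PSMB8 to PSMB5, the gene it replaces, was 0.443 ± 0.109 with uninjured fathers and 1.01 ± 0.729 with injured fathers (SD, n = 4), and ranged from 0.498 to 2.09 in the latter. The ratio of PSMB9 to PSMB6 was 0.0883 ± 0.0499 against 0.163 ± 0.109, and that of PSMB10 to PSMB7 was 0.258 ± 0.0253 against 0.312 ± 0.106. Each ratio was highest in the injured-father library 7, and the ranges of the groups overlapped in all 3. The ratios were not tested.

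**Figure D3:**
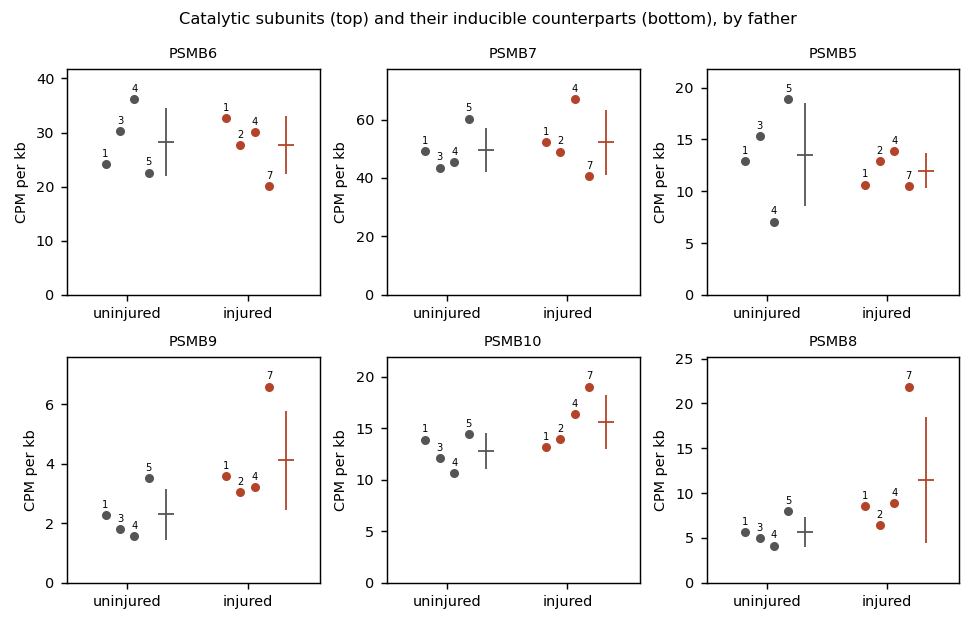
Level in CPM per kb of the cutting subunits of the constitutive core (top row) and of the inducible subunits that replace them (bottom row), by father; points are libraries with their numbers, bars the mean ± SD (n = 4). PSMB8, PSMB9 and PSMB10 are each highest in the injured-father library 7, whereas PSMB5, PSMB6 and PSMB7 are not.

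The cap ATPases form the ring that grips and unfolds the substrate. Their median log2 fold was 0.02, and 5 of 7 were positive. PSMC2 had the smallest p, at 56.6, 52.9, 49.9 and 67.1 CPM with uninjured fathers and at 61.0, 57.9, 73.5 and 58.9 CPM with injured fathers, a log2 fold of 0.15 (SE 0.17, edgeR adjusted p = 0.85). PSMC5, the most abundant of them, was at 98.9, 101, 99.0 and 121 against 104, 106, 123 and 104 CPM. In each group a single library stood above 3 close values, number 5 with uninjured and number 4 with injured fathers. The paralogues psmc1b and PSMC1 were at 29.6, 26.0, 24.7 and 39.7 against 29.5, 31.5, 42.5 and 26.7 CPM and at 25.4, 25.2, 25.02 and 29.7 against 23.9, 25.6, 34.6 and 22.5 CPM. Their log2 folds were 0.12 (SE 0.21) and 0.02 (SE 0.18), with the injured-father library 4 highest in both. All 7 folds lay between -0.05 and 0.15, the narrowest range of the 6 parts.

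The other cap subunits include the scaffold proteins PSMD1 and PSMD2, the ubiquitin receptor PSMD4 and the deubiquitinase PSMD14. They had a median log2 fold of -0.03, with 7 of 14 positive. The lowest folds belonged to the large scaffolds. PSMD1 (ENSDARG00000003189, chromosome 22, 37631034 to 37716627) was at 41.4, 25.2, 68.4 and 18.9 CPM with uninjured fathers and at 35.6, 27.6, 13.4 and 25.4 CPM with injured fathers. Its highest and lowest libraries differed 5.09-fold, and the log2 fold was -0.59 (SE 0.40, edgeR adjusted p = 0.76); without the uninjured-father library 4 it was -0.16.

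PSMD2 has 2 rows on separate unplaced scaffolds, of which ENSDARG00000103190 had a log2 fold of -0.42 (SE 0.26) and ENSDARG00000099653 one of -0.28 (SE 0.26). The first was at 27.9, 27.4, 29.3 and 16.5 against 26.6, 17.1, 11.8 and 19.96 CPM, and the second at 44.9, 41.6, 44.8 and 35.8 against 44.3, 27.6, 19.3 and 45.9 CPM. The injured-father library 4 was lowest in both. The RefSeq table lists 1 psmd2, and whether the rows are copies of the same gene was not tested. Reads that fit both were not counted, so the level of either row is uncertain; summed, they were at 67.1 ± 10.1 against 53.2 ± 18.6 CPM (SD, n = 4). PSMD3, a lid subunit, had a log2 fold of -0.20. The receptor PSMD4 was at 22.5, 21.4, 18.8 and 26.5 against 19.3, 24.3, 31.6 and 23.3 CPM, a log2 fold of 0.14 (SE 0.20). Its paralogue psmd4b was at 23.6, 26.0, 18.2 and 27.8 against 20.6, 23.0, 28.1 and 27.8 CPM, a log2 fold of 0.06 (SE 0.19). PSMD6, the highest of this part per kb, was at 65.8, 61.9, 57.7 and 84.1 against 61.1, 65.8, 81.6 and 64.5 CPM. The folds of PSMD6 and PSMD14 were 0.02 (SE 0.18) and 0.12 (SE 0.16), and the groups overlapped in these 4 genes.

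The assembly factors are chaperones that join subunits and leave the finished particle. PSMG1, PSMG2 and PSMG3 help to build the alpha ring, and PSMD5, PSMD9 and PSMD10 the ATPase ring. Their median log2 fold was 0.02, with 4 of 6 positive. PSMD10, also called gankyrin, was far below the others in level. It was at 0.511, 0.800, 0.361 and 0.859 CPM with uninjured fathers and at 0.987, 1.32, 1.14 and 1.40 CPM with injured fathers, so all injured-father libraries were higher. These levels are 5 to 24 reads per library. The log2 fold was 0.94 (SE 0.39); its edgeR p was 0.033, or 0.66 once adjusted over all genes. All 4509 bases of this gene lie within the span of NXT2 on the other strand, and strand was not used in counting, so unspliced NXT2 reads there cannot be told apart from its own. PSMG1 was at 14.4, 11.04, 12.5 and 12.6 against 13.01, 12.1, 9.48 and 11.8 CPM, a log2 fold of -0.12 (SE 0.19). PSMD9, the highest per kb, was at 13.1, 14.5, 11.7 and 17.1 against 16.6, 12.1, 19.1 and 13.5 CPM, a log2 fold of 0.12 (SE 0.21). The groups overlapped in both.

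The activators replace the cap at the end of the core. PSME1 and PSME2 form a ring that interferon induces in mammals, PSME3 a related ring of the nucleus, and PSME4 a single large dome-shaped protein; PSMF1 is an inhibitor of the core in vitro. PSME1 was at 20.1, 21.8, 17.8 and 28.3 CPM with uninjured fathers and at 21.6, 24.2, 30.9 and 38.4 CPM with injured fathers. PSME2 was at 42.8, 35.1, 37.1 and 47.6 against 38.9, 44.3, 49.4 and 62.0 CPM. The groups overlapped in both, and the injured-father library 7 was highest. The log2 folds were 0.39 (SE 0.22, edgeR adjusted p = 0.74) and 0.26 (SE 0.19, adjusted p = 0.77). Without the injured-father library 7 they were 0.22 and 0.12, and without the uninjured-father library 5 they were 0.53 and 0.34. PSME2 shares 455 bases with LSM5 on the other strand, so its level is uncertain. PSME3 was at 8.61, 7.20, 7.79 and 12.3 against 7.18, 7.91, 7.74 and 8.29 CPM, a log2 fold of -0.21 (SE 0.22), which was -0.018 without the uninjured-father library 5.

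In the same library 7 the summed level of the 11 interferon response genes was 527 CPM, against 328 to 388 CPM in the other injured-father libraries and 207 to 264 CPM with uninjured fathers; the part of this response in the PSME1 and PSME2 values was not tested. PSMF1 was also highest in library 7, at 36.7 CPM, where the other 7 libraries lay between 12.2 and 22.6 CPM.

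PSME4 has 2 genes with unlike behaviour. The copy on chromosome 12 (ENSDARG00000018742) was steady, at 148, 148, 145 and 120 CPM with uninjured fathers and at 122, 147, 125 and 109 CPM with injured fathers. The copy on chromosome 13 (ENSDARG00000087911, 35689749 to 35744963) was at 58.4, 51.6, 268 and 16.2 CPM with uninjured fathers and at 155, 71.7, 78.4 and 35.4 CPM with injured fathers. It varied 16.5-fold over the 8 libraries, with both extremes among uninjured fathers. Its log2 fold was -0.21 (SE 0.80), and without the uninjured-father library 4 it was 1.015. The ratio of the first to the second per kb ranged from 0.529 to 7.22.

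**Figure D4:**
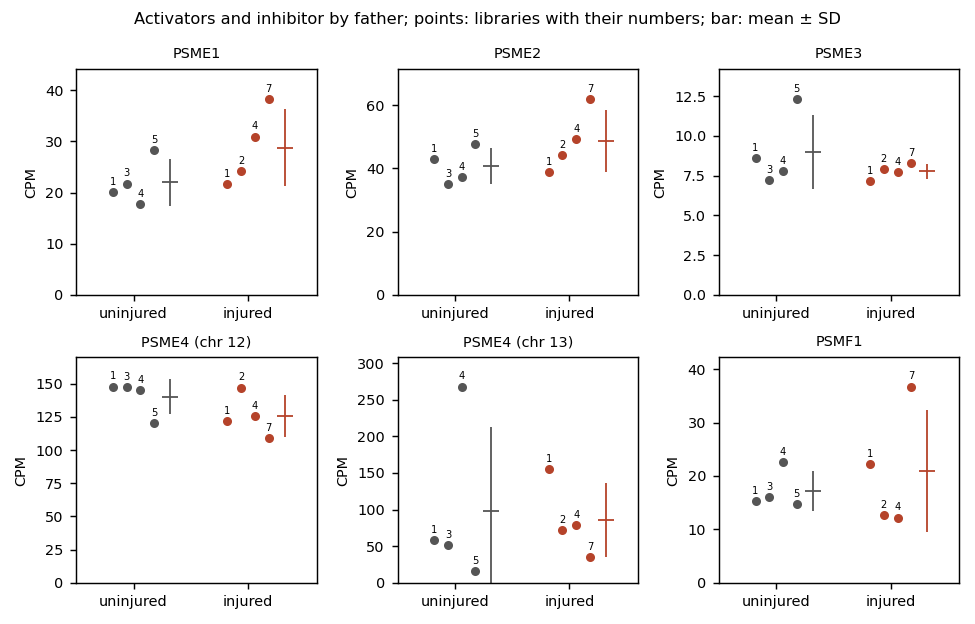
Level in CPM of the activator genes PSME1 to PSME4 and of the inhibitor gene PSMF1, by father; points are libraries with their numbers, bars the mean ± SD (n = 4), cut at 0 for PSME4 on chromosome 13. PSME1 and PSME2 are highest in the injured-father library 7 (38.4 and 62.0 CPM), and PSME4 on chromosome 13 in the uninjured-father library 4 (268 CPM).

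Proteasome genes also varied together between libraries of the same group. Relative to the other libraries of their group, 10 of 50 proteasome genes were higher in the uninjured-father library 4 (20%, median log2 difference -0.24), beside 50.4% of all tested genes. In the uninjured-father library 5, 39 of 50 were higher (78.0%, median 0.36), beside 49.6% of all tested genes. In the injured-father library 4, 40 of 50 were higher (80.0%, median 0.29), beside 51.5%. The injured-father libraries 1 and 2 had 14 (28.0%, median -0.17) and 12 (24.0%, median -0.09) higher, and the other 3 libraries 18 to 28. All 3 of these differences together were found in 37 of 50 proteasome genes (74.0%) and in 27.3% of all tested genes. The 37 include 9 of 10 core alpha genes, 6 of 7 core beta genes and all 7 cap ATPases. Without the injured-father library 4 the log2 fold was 0.24 for psma2a, 0.02 for PSMA8, 0.12 for PSMB2, 0.06 for PSMC2, -0.25 and -0.09 for the PSMD2 rows, -0.07 for PSMD11 on chromosome 12 and -0.04 for PSMG1. The 3 libraries were singled out after their values were seen, and the pattern was not tested.

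The opposite pattern, higher in the uninjured-father library 4 and lower in the other 2 libraries, was found in 7 genes (14.0%, beside 27.6% of all tested genes). They were PSMD1, both PSMD2 rows, PSMD3, PSMD11 on chromosome 12, PSMF1 and psma6l. Of the 7 rows, 5 are cap subunits, or 4 if the PSMD2 rows are counted once. The median gene length of the 7 was 2739 bases, against 1481 bases for the 37. Over all tested genes the opposite pattern also went with longer genes, with medians of 3647 and 2022 bases.

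Measures of library make-up were set beside these libraries. The TMM factor, which corrects for composition, was lowest in the injured-father library 4 (0.912), the uninjured-father library 5 (0.931) and the uninjured-father library 4 (0.943), and 1.01 to 1.08 in the other 5. Mitochondrial transcripts took 24.9% of counts in the injured-father library 4 and 22.7% in the uninjured-father library 5, against 19.7% to 21.7% in the other 6. Haemoglobin genes took 0.360% in the injured-father library 4 and 0.0900% to 0.173% elsewhere. Over all tested genes the difference of a library from its group correlated with gene length, as a description across genes, at Spearman -0.23 in the uninjured-father library 5, -0.324 in the injured-father library 4 and 0.21 in the uninjured-father library 4. It was 0.239 in the injured-father library 1 and 0.141 in the injured-father library 7, so correlations of this size were not confined to the 3 libraries. Over the 50 proteasome genes the correlation was -0.264 in the uninjured-father library 5, -0.414 in the injured-father library 4 and 0.13 in the uninjured-father library 4. Its largest value there was 0.628, in the uninjured-father library 1, and the remaining libraries lay between -0.159 and 0.324. The part of these measures in the proteasome values was not tested.

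**Figure D5:**
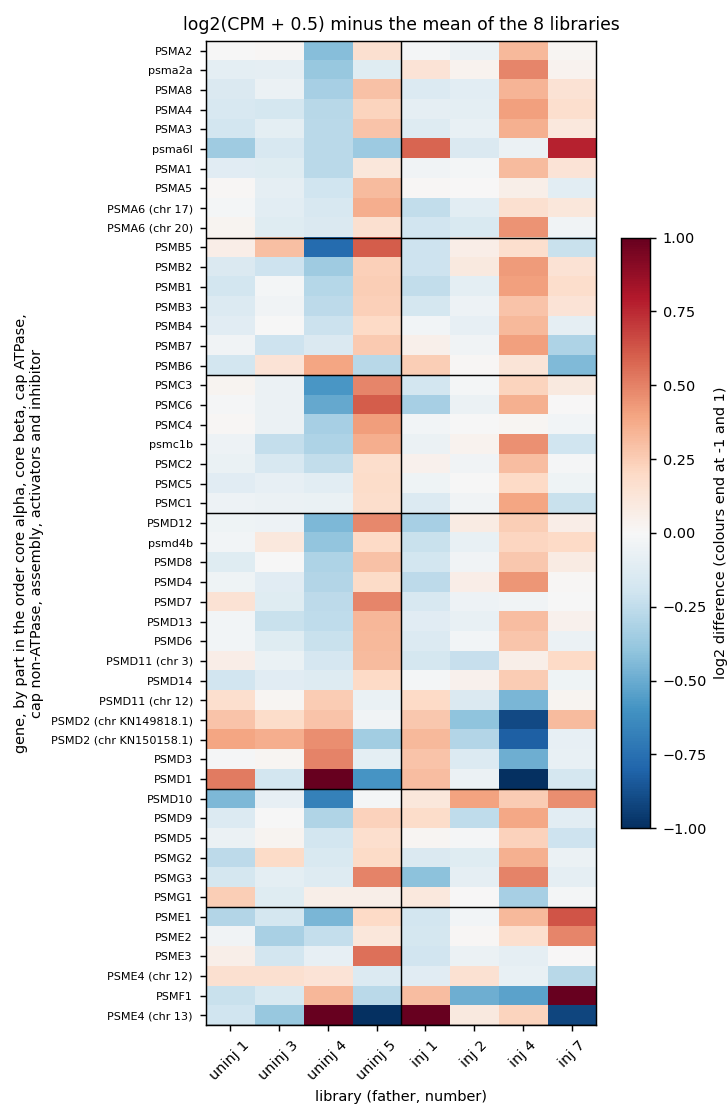
Log2(CPM + 0.5) of each proteasome gene in each library minus the mean of the 8 libraries, by part; columns 1 to 4 are uninjured fathers and columns 5 to 8 injured fathers. Most rows are blue in the uninjured-father library 4 and red in the uninjured-father library 5 and the injured-father library 4, while PSMD1, PSMD2 and PSMD3 show the reverse.

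Besides PSME4, 6 subunits had a pair of rows. Per kb, psmc1b was on average 1.95 times PSMC1 (range over the 8 libraries 1.64 to 2.21), psma2a 1.58 times PSMA2 (1.29 to 1.76) and psmd4b 1.24 times PSMD4 (1.058 to 1.444). The PSMA6 gene of chromosome 17 was 1.22 times that of chromosome 20 (0.995 to 1.40), and the PSMD11 gene of chromosome 12 was 1.13 times that of chromosome 3 (0.766 to 1.48). The PSMD2 row ENSDARG00000099653 was 2.02 times ENSDARG00000103190 (1.75 to 2.64). Reads shared by copies were not counted, so these ratios are uncertain. PSMA2, the partner of psma2a, was at 35.5, 36.0, 26.4 and 39.9 against 35.2, 34.2, 44.8 and 36.1 CPM. PSMA6 was at 29.6, 28.0, 26.9 and 38.9 against 25.3, 27.9, 33.8 and 32.6 CPM on chromosome 17 and at 29.3, 26.4, 26.0 and 32.2 against 25.03, 25.8, 39.4 and 28.1 CPM on chromosome 20. In these 3 genes the groups overlapped, and the PSMA6 gene of chromosome 20 shares 352 bases with nfkbiaa on the other strand. PSMD11 was at 33.0, 29.8, 35.2 and 28.0 against 33.8, 26.5, 21.3 and 29.9 CPM on chromosome 12 and at 24.2, 22.1, 20.6 and 29.0 against 20.5, 19.7, 24.1 and 26.7 CPM on chromosome 3. The PSMD11 copies took opposite patterns between libraries, with log2 folds of -0.18 on chromosome 12 and -0.08 on chromosome 3. The span of the chromosome 12 copy shares 2355 bases with OGFOD3 on the same strand, so its level is uncertain.

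Other genes of the pathway were read from lists of partners. Of 13 tested proteasome partners outside the naming rule, 0 were called and 0 reached an unadjusted edgeR p under 0.05, with 5 positive folds and a median of -0.17. POMP, the chaperone that matures the beta ring, was at 44.5 ± 3.94 against 46.1 ± 8.23 CPM, and SEM1, a small cap subunit, at 59.4 ± 9.77 against 61.4 ± 14.2 CPM (SD, n = 4). ZFAND5, which activates the proteasome in mammalian muscle, has the zebrafish copy zfand5b, at 70.8, 219, 447 and 53.0 CPM with uninjured fathers and at 94.1, 58.9, 96.9 and 100.2 CPM with injured fathers. Like PSME4 on chromosome 13, it was highest in the uninjured-father library 4 and lowest in the uninjured-father library 5.

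Of 12 tested genes that control proteasome transcription or its targets, 0 were called and 1 had an unadjusted p under 0.05. This was MIDN, whose product carries nuclear proteins to the proteasome in mammals, at 35.6, 106, 402 and 34.0 CPM with uninjured fathers and at 44.9, 12.1, 36.8 and 28.4 CPM with injured fathers. The log2 fold was -2.24 (SE 0.84, edgeR adjusted p = 0.64), and the groups overlapped. The stress regulator gene NFE2L2 was at 105 ± 13.7 against 104 ± 11.6 CPM. NFE2L1 and nfe2l1b, of the factor that raises proteasome genes when the proteasome is inhibited, were at 1.75 ± 0.663 against 1.40 ± 0.256 and at 1.62 ± 0.496 against 1.06 ± 0.444 CPM (SD, n = 4).

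Ubiquitin genes and activating enzymes had positive folds in 7 of 7 tested rows, with a median of 0.16 and 0 at an unadjusted edgeR p under 0.05; uba1, the main activating enzyme, was at 328 ± 42.3 against 349 ± 27.4 CPM (SD, n = 4). Of 9 substrate shuttle and unfolding genes 4 were positive (median -0.21), and VCP, the ATPase that extracts ubiquitin-tagged proteins, was at 82.6 ± 15.6 against 71.2 ± 6.04 CPM. Of 10 tested muscle ubiquitin ligases 5 were positive (median 0.02). The COP9 signalosome, a complex built like the lid of the cap, had 7 of 8 positive and a median of 0.08, and the chaperonin CCT 2 of 8 and a median of -0.08. None of these 4 lists had a gene with an unadjusted edgeR p under 0.05, where 7.14% of all tested genes had one.

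Markers of other cells in the ventricle were set beside these values. Summed red blood cell markers ranged from 430 to 768 CPM with uninjured fathers and from 616 to 1882 CPM with injured fathers, with 8 of 8 tested genes positive. Summed macrophage markers ranged from 31.1 to 42.3 and from 32.2 to 55.4 CPM. Endothelial markers ranged from 896 to 1130 and from 812 to 1041 CPM, and epicardial and fibroblast markers from 330 to 425 and from 341 to 428 CPM. With the haemoglobin share of each library in the model, the fold was positive in 15 of 50 proteasome genes (median log2 fold -0.06), and 0 were called. That share was 0.360% in the injured-father library 4 and 0.0900% to 0.173% elsewhere. With the injured-father library 4 left out instead, the fold was also positive in 15 genes, with a median of -0.05. This model therefore cannot tell haemoglobin share from that library, and the part of blood content was not tested. The 2 genes that match the rule by name only had no called difference: PSME3IP1 had a log2 fold of 0.07 (SE 0.24), and PSMC3IP, with 1 to 8 reads per library, did not pass the filter on low counts.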

How the data were processed

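RNA was measured by bulk RNA sequencing of 8 pooled ventricle libraries, made from 1 ng of RNA with 2 rounds of amplification and read as single reads of 60 bases, per the labels' protocols. The authors deposited 1 table of raw counts by gene, without normalisation. Per the file headers, featureCounts 2.0.3 produced it from Ensembl release 111 (GRCz11), using strand option 0. Per the submitters' processing notes, the tools were FastQC 0.11.9, MultiQC 1.12, STAR 2.7.10a, R 4.4.0 and DESeq2 1.44.0. The visible command sets no option for reads that map to several places or genes; by the program's default these are not counted. The deposited gene length, in bases, is that of all annotated exons.

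Symbols came from a table of gene IDs that named 89.8% of 32520 genes; symbols keep the case of that table, and rows that share a symbol are told apart by chromosome. Lists were matched by symbol, ignoring case, and where that failed without a final a or b. The members and lists were chosen with earlier results of these data known.

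All genes went into 1 robust quasi-likelihood fit (edgeR 4.0.16 in R 4.3.3). Scaling used TMM, low genes were dropped by filterByExpr (minimum count 10, leaving 13604), and a call needed a Benjamini-Hochberg adjusted p under 0.05. The SE is the size of the log2 fold divided by the root of its F statistic; 95% intervals multiply it by the t quantile at the fit's degrees of freedom. CPM are counts per 1000000 of the TMM-scaled total. On simulated data drawn for this comparison from 13604 genes, with 200 changed in each of 5 simulations, 23.7% of 2-fold and 88.3% of 4-fold changes were recovered by the same code, and 5.87% of its calls were false. DESeq2 1.42.0 and limma 3.58.1 (voom) were alternatives, with other scalings, filters, a haemoglobin covariate, a replicate block and each library left out.

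The rule for genes given in full took the 2 members of smallest p, the highest and the lowest per kb in each part, the cutting subunits and paralogue pairs; of other lists up to 3 members of smallest p were allowed. Other list genes named (POMP, SEM1, NFE2L2, NFE2L1, nfe2l1b, uba1, VCP) and PSMF1, PSMD3, PSMD14, PSMA3 and PSMA4 were chosen after their values were seen. No pair of libraries in a group agreed within sampling noise. Amplified repeats of the same pool could also differ by more than that, so this does not show that libraries are independent. Each library was taken as 1 sample. Reads were amplified and carry no molecular identifiers, hence a count is not a number of independent molecules. No sequence is printed, since no sequence table was used here.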

Additional observations from a re-analysis of the deposited data

Results flagged for a closer look

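Single libraries stood apart from the other 3 of their group by Dixon's test in 8 of 64 groups. The groups were made of the 32 genes given in full and both father groups. Chance gives about 1 in 20 where groups are independent. These genes share the same 8 libraries and were partly chosen by their values, so the count does not measure an excess over chance. In the uninjured-father library 5, PSMC5 was at 121 CPM where the nearest library had 101, and PSMC1 at 29.7 where it had 25.4. The same library was low for PSMD2 (ENSDARG00000103190), at 16.5 CPM with the nearest at 27.4, and for PSME4 on chromosome 12, at 120 CPM with the nearest at 145. In the injured-father library 4, PSMB4 was at 105 CPM with the nearest at 82.4, and PSMC5 at 123 CPM with the nearest at 106. In the uninjured-father library 4, psma2a was at 15.4 CPM with the nearest at 18.4, and PSME4 on chromosome 13 at 268 CPM with the nearest at 58.4. All 8 values lie in these 3 libraries. Most proteasome genes were below their group in the uninjured-father library 4, and above it in the uninjured-father library 5 and the injured-father library 4.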

How the results depend on the processing

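No proteasome gene was called under any setting tried. The count of all genes called was 0 in edgeR, 63 in DESeq2 and 20 with the replicate block; it was 0 with each library left out in turn. The median log2 fold of the 50 genes ranged from -0.05 to 0.17 over the libraries left out and was -0.06 with the haemoglobin covariate. By part, it ranged from 0.023 to 0.25 for core alpha and from -0.045 to 0.18 for core beta over the libraries left out. The ranges were -0.057 to 0.19 for cap ATPases, -0.086 to 0.080 for other cap subunits and -0.053 to 0.12 for assembly factors. The sign changed in all of these but core alpha. Over the other settings the median ranged from -0.031 to 0.35 for core alpha and -0.12 to 0.32 for core beta. For other cap subunits that range was -0.076 to 0.094. For the activators and inhibitor the median was 0.05 in the edgeR fit with all libraries, with 3 of 6 positive. It was 0.22 in limma voom and ranged from -0.024 to 0.26 over the libraries left out. The ends were without the injured-father library 7 and without the uninjured-father library 4. In this part, PSME4 on chromosome 13 changed sign from -0.21 to 0.28 in limma voom. Without the uninjured-father library 4 its log2 fold was 1.015. The cause of these shifts was not tested. PSMD10 has no value at a minimum count of 30, which removes it.

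Library numbers 1 and 4 occur in both groups, and the correlations of their deviations from the group means were 0.12 and -0.28. These 2 values cannot tell whether the numbers pair the libraries, and the labels do not say that they do. With the replicate block, which rests on those 2 numbers, the median was 0.25 for all 50 genes, 0.35 for core alpha, 0.32 for core beta, 0.28 for cap ATPases, 0.29 for assembly factors and -0.15 for activators and inhibitor; PSMD1 alone of the 50 then had an unadjusted p under 0.05.

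Signs changed for uncalled log2 folds, most of them near 0. With DESeq2 size factors the log2 fold was -0.0015 for PSMC1. With upper-quartile factors the log2 fold was 0.032 for PSMB6. With library sizes alone the log2 fold was 0.00061 for PSMD11 on chromosome 3, 0.043 for PSMB6 and 0.030 for PSMA6 on chromosome 17. Without the filter the log2 fold was -0.028 for PSMC1 and -0.024 for PSMD6. In DESeq2 the log2 fold was -0.0014 for PSMC1. In limma voom the log2 fold was -0.0017 for PSMC1 and 0.28 for PSME4 on chromosome 13. With the haemoglobin covariate the log2 fold was -0.033 for PSMA8, -0.078 for PSMB1, -0.12 for PSMB4, -0.11 for psmc1b, -0.039 for PSMC5, -0.24 for PSMC1, -0.12 for PSMD6, 0.086 for PSMG1, -0.10 for PSMD9, -0.15 for PSMB7, -0.044 for PSMA2, -0.078 for PSMD4, -0.057 for psmd4b, -0.20 for PSMA6 on chromosome 20, 0.048 for PSMD11 on chromosome 12 and 0.11 for PSMD2 (ENSDARG00000099653). With the replicate block the log2 fold was 0.35 for PSMB5, 0.084 for PSMB6 and 0.051 for PSMA6 on chromosome 17. With each library left out in turn the log2 folds ranged from -0.14 to 0.089 for PSMC1, -0.084 to 0.14 for PSMD6, -0.13 to 0.11 for PSMB6, -0.052 to 0.14 for psmd4b, -0.67 to 1.015 for PSME4 on chromosome 13, -0.39 to 0.020 for PSMB5, -0.16 to 0.027 for PSMD11 on chromosome 3, -0.11 to 0.083 for PSMA6 on chromosome 17, -0.0041 to 0.24 for PSMB1, -0.045 to 0.15 for PSMB4, -0.044 to 0.28 for psmc1b, -0.011 to 0.13 for PSMC5, -0.0058 to 0.22 for PSMD9, -0.077 to 0.18 for PSMB7, -0.0058 to 0.24 for PSMD4 and -0.12 to 0.13 for PSMA6 on chromosome 20. Depth limits PSMD10 most, with 5 to 24 reads per library.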
